A study of Mus musculus with 2 samples.

Results

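The genes described here are 45 homeobox genes that lie outside the 4 Hox clusters, measured in ureters of mouse embryos in which Smad4 was deleted and in control ureters. They were taken by name: every probe on the array, control spots aside, whose gene name in both scanner files was that of one of the 45 genes. All 45 genes had a probe, of 31870 gene names on the array, and these were 55 of its 39429 probes.

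The study used 2 two-colour Agilent arrays and RNA from E14.5 ureters of NMRI mice. Each array set ureters of genotype Tbx18(cre/+);Smad4(fl/fl), called Smad4cKO, against control ureters of genotype Tbx18(+/+);Smad4(fl/+). The controls thus also carried a floxed Smad4 allele, but no Cre, and the Smad4cKO embryos also carried a Tbx18 allele with Cre, so that effects of that allele and of Smad4 loss cannot be told apart. Array 1 held a female pair with the Smad4cKO RNA in green (AlexaFluor555), and array 2 a male pair with it in red (AlexaFluor647), so sex and dye changed together. Cre from the Tbx18 locus acts in the mesenchyme around the ureter and not in its epithelium, and whole ureters were measured. Neither the number of embryos behind an RNA nor separate litters are given, so p-values cannot be read as measuring the spread between embryos or litters. They rest on the spread between these 2 arrays, which differ in sex and dye, and largely on a spread shared by all genes tested.

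Homeobox genes encode transcription factors that bind DNA through a homeodomain, and many set the identity of a region or cell type in the embryo. SMAD4 is the partner that BMP and TGFB SMAD proteins need to act on most of their target genes. Msx and Dlx genes are classical BMP-induced genes in limb, tooth and head, whereas Meis and Pbx proteins are partners of Hox proteins in many tissues. In the ureter, BMP signals act on the mesenchyme that forms the smooth muscle coat.

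In the 4 labelled channels, 68.3% to 70.3% of spots were well above background, median signal over background was 8.79 to 10.8, and 0 spots were saturated. Of ureter markers, 14 of 14 urothelial, 8 of 8 ureteric mesenchyme and 7 of 7 smooth muscle genes were well above background in all 4 channels. So were 12 of 12 neuronal and glial, 8 of 8 nephron progenitor and kidney stroma, and 8 of 8 endothelial markers. Of other lists, 6 of 7 skeletal muscle, 8 of 11 gonadal, 5 of 7 limb, cartilage and body wall, and 1 of 5 gut epithelium markers were. These counts alone thus do not set the ureter apart from other tissue. Every ratio here is Smad4cKO over control on the log2 scale, with the channels named by their dye labels. The deposited value table holds the inverse, control over Smad4cKO, under titles that name Smad4cKO first, so that its titles give the opposite direction, under which every sign below would turn. Smad4 itself gave -0.69 on array 1 and -0.14 on array 2, and Tbx18 gave 0.07 and 0.81. The 7 smooth muscle markers were all brighter on both arrays, 6 of them by at least 1.5-fold, with a summed signal of 30500.3 and 48200.4 in Smad4cKO and 16354.9 and 15138 in control. Among all genes tested, 19.9% were brighter and 19.8% dimmer on both arrays, and 0.490% and 0.523% were so by at least 1.5-fold. Of 11 tested genes known to be induced by or to act on BMP-SMAD signalling, 4 were brighter and 1 dimmer by at least 1.5-fold on both arrays. Brighter were Id1 (1.14 and 1.19), Id2 (0.68 and 1.72), Id3 (0.99 and 1.04) and Smad6 (0.63 and 0.94), and dimmer Zcchc12 (-0.71 and -0.61). By the dye labels, these 4 thus rose where Smad4, which BMP SMAD proteins need at most targets, was deleted. None of these values settles the direction, so brighter and dimmer below refer to the channel labelled Smad4cKO. In whole ureters, fewer cells of a type and less RNA per cell cannot be told apart.

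Of the 45 homeobox genes, 35 had a probe that was well above background in the same labelled group on both arrays, and these were tested; 31 of them were above background in all 4 channels. Barx2, Dlx5, Irx6 and Nkx2-5 were above it in 3 channels, and so entered through 1 genotype only. The 10 others had no ratio that could be tested. Among these, 8 were not well above background in any channel by any probe: Barx1, Dlx6, Emx1, Irx5, Lhx8, Shox2, Six3 and Six6, with processed signals (background-subtracted, dye-normalized intensities) between 5.47 and 18.7. These are genes best known from other organs, such as stomach mesenchyme (Barx1), forebrain and eye (Six3, Six6, Emx1, Lhx8) and the sinus node of the heart (Shox2). The other two, Dlx4 and Irx1, were above background in both channels of the female pair and in neither channel of the male pair.

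The comparison asks whether any of these factors had a different transcript level after Smad4 deletion in the ureteric mesenchyme. Of the 35 tested genes, 0 were brighter and 0 dimmer by at least 1.5-fold on both arrays; among all 21238 genes tested, 0.490% were brighter and 0.523% dimmer by that rule, and 1.25% passed it in opposite directions. By limma (Benjamini-Hochberg adjusted p under 0.05 over all genes tested), 0 of the 35 were called in either direction, against 0% of all genes brighter and 0.00471% dimmer. The lowest adjusted p among the members was 0.299, for Prrx2. At an unadjusted limma p under 0.05, 4 members were brighter (Prrx2, Irx3, Lhx9 and Alx1) and 1 dimmer (Meox1), beside 2.14% and 2.97% of all genes. These counts do not show that the members were equal between the genotypes. The 95% interval of the ratio (from limma's standard error, set largely by the variance prior shared by all genes, since 2 arrays leave 1 residual degree of freedom) lay wholly inside 1.5-fold in either direction for 20 members and reached past it for 15.

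**Figure D1:**
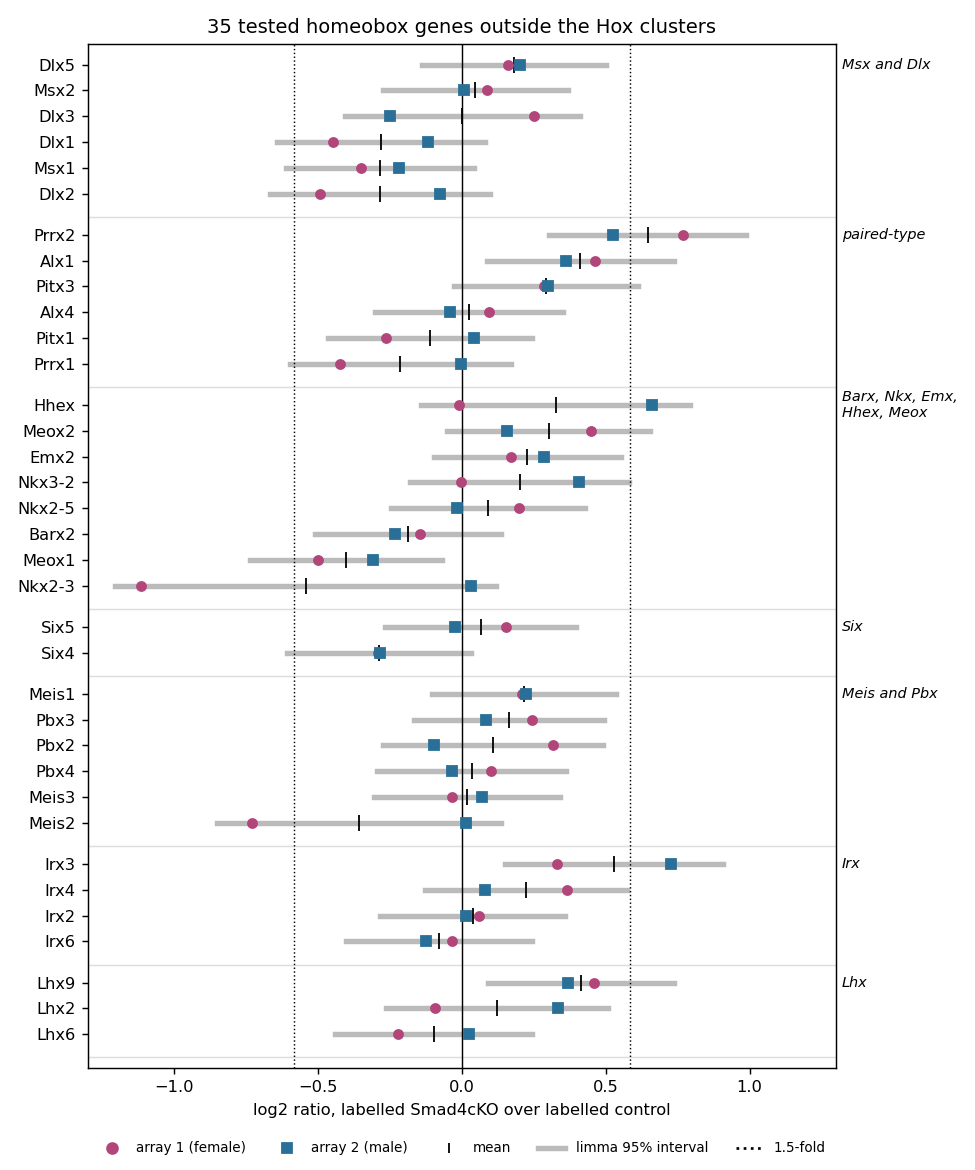
Log2 ratio of labelled Smad4cKO over labelled control (x axis) for each of the 35 tested members (y axis, grouped by homeobox class), with array 1 as circles, array 2 as squares, the mean as a tick and limma's 95% interval as a grey bar. No member has both points beyond the same dotted 1.5-fold line; Prrx2 comes nearest, with 0.77 and 0.52, and Nkx2-3 and Meis2 pass it on array 1 only.

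Across the tested members the median log2 ratio was 0.05, with 0.09 on array 1 and 0.02 on array 2, and over all genes tested it was 0.0047. The median size of the ratio, without its sign, was 0.21 for the members and 0.07 for all genes. On both arrays 13 members were brighter, against 19.9% of all genes, and 8 were dimmer, against 19.8%. The sign was thus the same on both arrays for 60% of the tested members, against 39.7% of all genes, and the other 14 changed sign between the arrays. Dlx5 among the brighter members, and Barx2 and Irx6 among the dimmer, passed the filter only through 1 genotype. That favours their sign, so they add no support to these counts. Past 1.5-fold on 1 array only were Prrx2, Nkx2-3 and Meis2 on array 1 and Hhex and Irx3 on array 2.

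**Figure D2:**
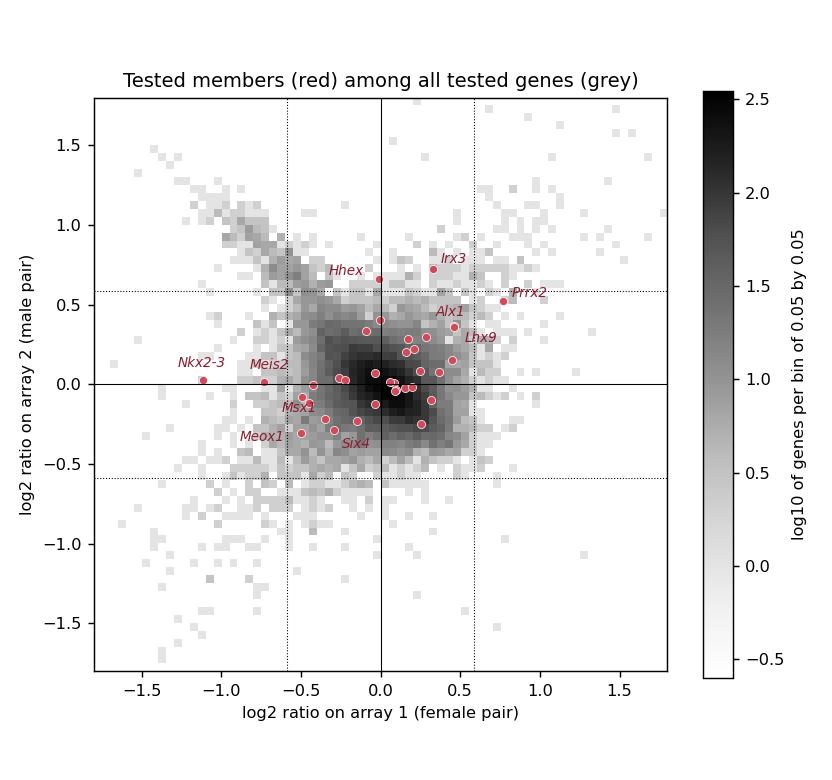
Log2 ratio on array 1 (x axis) against array 2 (y axis) for the 35 tested members (red points) over all genes tested (grey, log10 of the number of genes per bin), with dotted lines at 1.5-fold. No red point lies in a corner: 0 are beyond 1.5-fold on both arrays, while Nkx2-3 lies at -1.12 on array 1 and 0.03 on array 2.

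Among the genes of the Msx and Dlx families, known for their induction by BMP, 6 of 8 were tested and 0 passed either rule. Msx1, a repressor that keeps progenitors undifferentiated in limb and tooth, had processed signals of 478 in Smad4cKO and 607 in control on array 1, and 613 and 732 on array 2. Both Smad4cKO values lay below the control of the same array. Signals were not scaled between the arrays, so values of different arrays are not compared. Its log2 ratio was -0.35 on array 1 and -0.22 on array 2, with a mean of -0.28 ± 0.13 (SE, n = 2 arrays, limma adjusted p = 1.00) and a 95% interval of -0.61 to 0.04. Msx2, its close relative, had log2 ratios of 0.09 and 0.01, with an interval of -0.28 to 0.37 around the mean of 0.05. Msx1 was thus dimmer on both arrays by a mean of 1.22-fold without passing the test, and for Msx2 a difference of 1.5-fold lay outside the interval.

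The Dlx genes lie in neighbouring pairs, and the pair that could be compared gave like values. Dlx1 and Dlx2, adjacent on chromosome 2 and best known from forebrain interneurons and the jaw, had log2 ratios of -0.45 and -0.49 on array 1. On array 2 they gave -0.12 and -0.08. Both were dim: Dlx1 signals were 83.0 in Smad4cKO and 127 in control on array 1, and 104 and 121 on array 2. Dlx3, known from epidermis, tooth and placenta, was -0.25 on array 2 and 0.25 on array 1, opposite signs that cancel in the mean. Its neighbour Dlx4 had signals of 290 in Smad4cKO and 127 in control in the female pair, where both channels were above background, and of 30.0 and 19.5 in the male pair, where neither was. Dlx5, an osteoblast and limb gene, gave 0.16 and 0.20, and 0.58 and 0.56 from processed signals, just short of the 1.5-fold line. It passed the filter only through the Smad4cKO channels, where it was the brighter, so its sign supports nothing. Its signals were 43.5 in Smad4cKO and 29.1 in control on array 1 and 56.5 and 38.2 on array 2, and its neighbour Dlx6 was not detected.

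The paired-type genes held the member with the lowest adjusted p. Prrx2, a gene of embryonic limb and face mesenchyme, had processed signals of 8687 in Smad4cKO and 5265 in control on array 1, and of 8912 and 6018 on array 2. On each array the Smad4cKO value lay above the control. Members given in full were chosen for the same sign on both arrays, so this is no separate support. Its log2 ratio was 0.77 and 0.52, with a mean of 0.65 ± 0.14 (SE, n = 2 arrays, limma adjusted p = 0.299), or 1.56-fold, and a 95% interval of 0.30 to 0.99. Array 2 fell short of the 1.5-fold line at 0.58. The probe lies on chromosome 2, 30736678 to 30736737 (mm9). Over the 10 alternatives that keep both arrays, its limma adjusted p ran from 0.0047 to 1.00. The lowest came with an intensity trend and a robust prior in the empirical Bayes step, the only alternative that called Prrx2, and that fit also called 1.40% of all genes brighter and 1.92% dimmer.

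Prrx1, the relative of Prrx2 with overlapping roles in limb and face, gave -0.42 on array 1 and -0.01 on array 2 by 1 probe, and -0.48 and 0.08 by a second. Alx1, a gene of face mesenchyme derived from neural crest, had signals of 1545 in Smad4cKO and 1122 in control on array 1, and 1620 and 1197 on array 2. The Smad4cKO value again lay above the control on each array. Its log2 ratio was 0.46 and 0.36, with a mean of 0.41 ± 0.13 (SE, n = 2 arrays, limma adjusted p = 0.658) and an interval of 0.09 to 0.74. Alx4, its relative in face and limb, gave 0.09 and -0.04. Pitx3, known from midbrain dopamine neurons and lens, gave 0.29 and 0.30, and Pitx1, which sets hindlimb identity, gave -0.26 and 0.04.

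**Figure D3:**
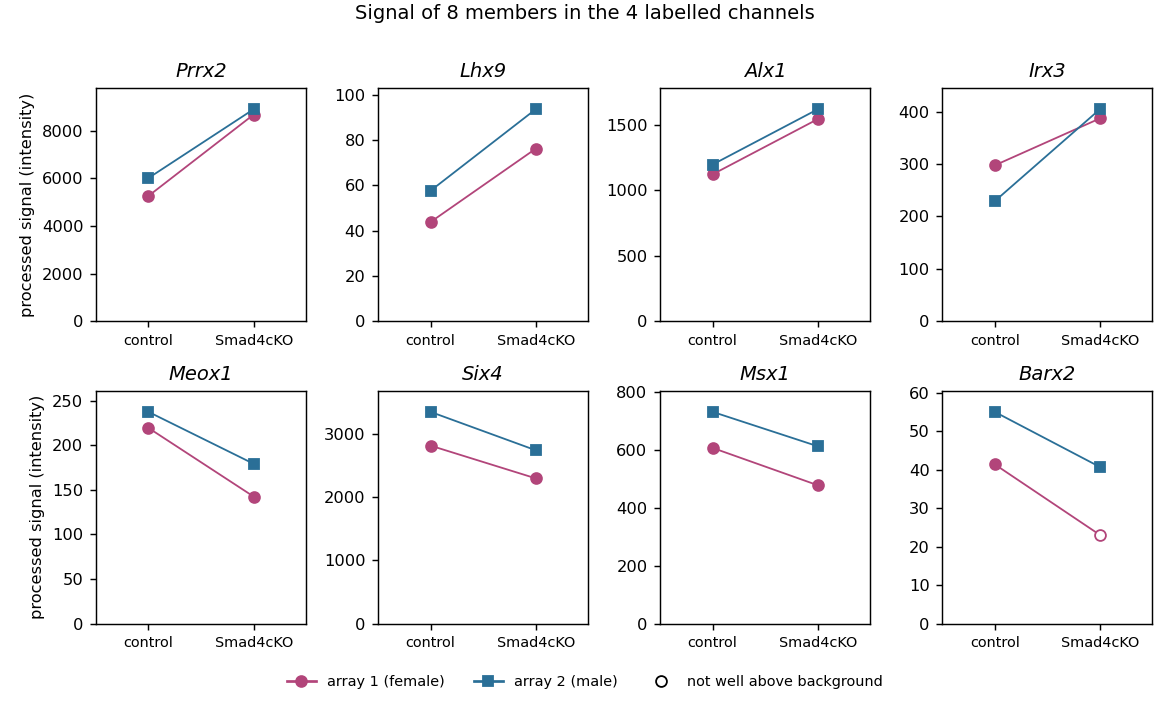
Processed signal (y axis, intensity, starting at 0, each panel with its own scale) in the control and Smad4cKO channels (x axis) of the 8 members described in full by rule, with a line per array. In Prrx2, Lhx9, Alx1 and Irx3 both lines go up from control to Smad4cKO, and in Meox1, Six4, Msx1 and Barx2 both go down; the open circle of Barx2 was not well above background.

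Among the Barx, Nkx, Emx, Hhex and Meox genes, 8 of 10 were tested and 0 passed either rule. Meox1, which acts in the somites that form axial muscle and skeleton, had signals of 142 in Smad4cKO and 219 in control on array 1, and 179 and 237 on array 2. The Smad4cKO value lay below the control of the same array in both pairs. Its log2 ratio was -0.50 and -0.31, with a mean of -0.40 ± 0.14 (SE, n = 2 arrays, limma adjusted p = 0.722) and an interval of -0.74 to -0.07. Skeletal muscle markers moved in the same direction: 5 of the 6 tested of 7 were dimmer on both arrays and 1 brighter, beside 19.8% and 19.9% of all genes. Their summed signal was 865 and 1059 in Smad4cKO against 1378 and 1627 in control. Their part in the Meox1 value was not tested. Meox2, known from limb muscle and endothelium, had the opposite sign, with 0.45 and 0.15.

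Nkx2-3, a gene of gut and spleen mesenchyme, differed most between the arrays. Its signal was 32.6 in Smad4cKO and 127 in control in the female pair, and 72.0 and 70.2 in the male pair. The log2 ratio was -1.12 and 0.03, with a mean of -0.54 ± 0.27 (SE, n = 2 arrays, limma adjusted p = 1.00), so it rests on 1 array. On that array the Smad4cKO signal was dim, and from processed signals the ratios were -1.96 and 0.04. Hhex, a gene of liver, thyroid and early endothelium, did the reverse, with -0.01 on array 1 and 0.66 on array 2. Its signals were 472 in Smad4cKO and 442 in control in the female pair, and 522 and 325 in the male pair. All 8 of 8 endothelial markers were detected, 4 of them brighter on both arrays and 0 dimmer, beside 19.9% and 19.8% of all genes. Their summed signal was 37220 and 40302 in Smad4cKO and 32883 and 37567 in control. The part of these markers in the Hhex value was not tested.

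The remaining genes of that group had smaller ratios. Emx2, which is needed for the urogenital tract, gave 0.17 and 0.29, with signals of 798 and 707 on array 1 and 1010 and 818 on array 2 (Smad4cKO first). Nkx3-2, a gene of the axial skeleton and gut wall, gave -0.01 and 0.41, and the heart gene Nkx2-5 gave 0.20 and -0.02. Barx2 gave -0.15 and -0.23, at signals of 23.1 in Smad4cKO and 41.4 in control on array 1 and 40.7 and 55.0 on array 2, near background. It passed the filter only through the control channels, where it was the brighter, so its dimmer sign supports nothing and no test is given. The offset of 50 added to the signals shrinks the ratios of such dim probes, and from processed signals the Barx2 ratios were -0.84 and -0.43.

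Six4 and its relatives act with Eya proteins in kidney, muscle and sense organs, and 2 of these 4 genes were tested. Six4, which acts in developing muscle, had almost the same ratio on both arrays, -0.29 and -0.29. Its signals were 2294 in Smad4cKO and 2810 in control on array 1, and 2738 and 3343 on array 2. The mean was -0.29 ± 0.13 (SE, n = 2 arrays, limma adjusted p = 1.00) with an interval of -0.61 to 0.03. Within each array the Smad4cKO value lay below the control. Six5 gave 0.15 and -0.02, and Six6, whose locus neighbours that of Six4 on chromosome 12, was not detected.

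The 6 Meis and Pbx genes, which encode partners of Hox proteins, were all above background in all 4 channels. Signals of Meis1, needed for blood, eye and limb development, were 57879 and 47796 in Smad4cKO and 44116 and 49760 in control. Its log2 ratio was 0.21 on array 1 and 0.22 on array 2 after loess, 0.39 and -0.06 from processed signals, and -0.62 and 1.00 with median centring in place of loess. Its sign on either array thus changed with the processing, while the mean stayed between 0.17 and 0.22. Meis2 had signals of 16171 in Smad4cKO and 26560 in control in the female pair, and of 24537 and 25678 in the male pair. Its ratio after loess was -0.73 and 0.01, with a mean of -0.36 ± 0.20 (SE, n = 2 arrays, limma adjusted p = 1.00). With loess the value thus again rested on array 1. With median centring the Meis2 ratios were -1.28 and 0.61, past 1.5-fold in opposite directions, with a mean of -0.33. Its value on each array thus also changed with the processing. Meis3 gave -0.03 and 0.07, and its 3 tested probes agreed within 0.02 on each array. Pbx2 gave 0.32 and -0.10, Pbx3 0.24 and 0.08, and Pbx4 0.10 and -0.03.

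The Iroquois genes, which pattern heart, limb and nervous system, form clusters on chromosomes 13 and 8. In the cluster of Irx3, Irx5 and Irx6 on chromosome 8, Irx3 had signals of 387 in Smad4cKO and 297 in control on array 1, and 405 and 229 on array 2. Each Smad4cKO value lay above the control of its array. The log2 ratio was 0.33 and 0.73, with a mean of 0.53 ± 0.15 (SE, n = 2 arrays, limma adjusted p = 0.571), or 1.44-fold, and an interval of 0.15 to 0.91. Its neighbour Irx6 gave -0.03 and -0.13 at signals of 28.9 to 52.2, with a mean between -0.12 and 0.03 over the alternatives, and Irx5 was not detected. Irx6 passed the filter only through the control channels, so its dimmer sign supports nothing. With the intensity trend and robust prior Irx3 was called (limma adjusted p = 0.0103, and up to 1.00 over the alternatives). In the cluster of Irx1, Irx2 and Irx4 on chromosome 13, Irx4 gave 0.37 and 0.08 and Irx2 gave 0.06 and 0.01, a sign that was not stable: its mean of 0.04 ran from -0.07 to 0.09 over the alternatives. Irx2 had signals of 38.4 in Smad4cKO and 42.4 in control in the female pair, and of 170 and 169 in the male pair. Within each pair the genotypes were close, and the pairs are not compared, since signals were not scaled between the arrays. A second Irx2 probe was above background in 0 channels. Irx1 was flagged as well above background in the female pair alone, at 40.4 in Smad4cKO and 44.7 in control. In the male pair, where neither channel was flagged, its signals were 40.9 in Smad4cKO and 24.7 in control. The flag thus does not show that Irx1 was absent from the male pair.

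Of the LIM-homeobox genes, 3 of 4 were tested. Lhx9, which is required for the gonad to form, had signals of 76.2 in Smad4cKO and 43.8 in control on array 1, and of 93.7 and 57.7 on array 2. Each Smad4cKO value lay above the control of its array. Its log2 ratio was 0.46 and 0.37, with a mean of 0.41 ± 0.13 (SE, n = 2 arrays, limma adjusted p = 0.648) and an interval of 0.09 to 0.74, and a second tested probe gave 0.23 and 0.34. From processed signals, without the offset, the ratios were 0.80 and 0.70, past the 1.5-fold rule on both arrays, in a setting where 0.866% of all genes were brighter and 0.937% dimmer by that rule. Limma with processed signals called 0 members, the lowest adjusted p being 0.0558 for Lhx9, and 0.673% of all genes brighter and 0.753% dimmer. With the intensity trend and robust prior Lhx9 was called (limma adjusted p = 0.0103, and up to 1.00 over the alternatives). Of the gonadal markers, 8 of 11 were tested, and 1 was brighter and 2 dimmer on both arrays, beside 19.9% and 19.8% of all genes. Their summed signal was 16184 and 19726 in Smad4cKO and 15738 and 20971 in control, most of it from Foxl2 (12886 and 15866 against 12185 and 17035). Their part in the Lhx9 value was not tested. Amh, Gata4 and Hsd3b1 were not tested, for lack of signal above background in the same group on both arrays. Lhx2, known from limb and eye, gave -0.09 and 0.33, and Lhx6, known from forebrain interneurons, gave -0.22 and 0.02.

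RefSeq start sites (build GRCm38.p6) gave a promoter window for 32 of the 45 genes, in all 36 windows of 250 bases before the start. Their median GC content was 62.4%, against 52.4% over 32851 windows of all genes. The motifs linked to SMAD proteins searched on both strands were the GC-rich element GGCGCC, which BMP SMADs bind, and CAGAC, the core of the element that SMAD3 and SMAD4 bind; the motifs cannot overlap by more than a base. GGCGCC was in 27.8% of the members' windows and in 9.59% of all windows, and CAGAC in 33.3% and 42.2%. GC content differs in the same direction as the share with GGCGCC, and its part was not tested. The 5 windows printed here are those of the members nearest to a call that had one (Prrx2, Irx3 and Lhx9) and of the BMP-linked Msx pair, with CAGAC or its reverse complement GTCTG in capitals. They lie at chr2:30845117-30845366 (Prrx2, plus strand), chr8:91801655-91801904 (Irx3, minus), chr1:138842445-138842694 (Lhx9, minus), chr5:37824586-37824835 (Msx1, minus) and chr13:53472781-53473030 (Msx2, minus).
Prrx2: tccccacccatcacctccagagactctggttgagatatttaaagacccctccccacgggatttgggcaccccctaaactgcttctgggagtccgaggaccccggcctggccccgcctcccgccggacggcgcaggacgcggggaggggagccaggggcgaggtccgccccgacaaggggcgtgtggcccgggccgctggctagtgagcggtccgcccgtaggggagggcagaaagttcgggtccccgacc
Irx3: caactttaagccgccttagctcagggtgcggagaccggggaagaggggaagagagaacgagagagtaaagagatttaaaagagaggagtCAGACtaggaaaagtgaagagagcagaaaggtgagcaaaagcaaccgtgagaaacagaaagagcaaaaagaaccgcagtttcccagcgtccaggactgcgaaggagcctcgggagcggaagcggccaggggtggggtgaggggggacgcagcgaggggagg
Lhx9: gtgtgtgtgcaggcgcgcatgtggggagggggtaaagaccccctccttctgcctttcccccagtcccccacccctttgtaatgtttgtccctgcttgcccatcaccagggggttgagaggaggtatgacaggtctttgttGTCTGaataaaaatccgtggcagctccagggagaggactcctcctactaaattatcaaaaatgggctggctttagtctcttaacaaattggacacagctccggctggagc
Msx1: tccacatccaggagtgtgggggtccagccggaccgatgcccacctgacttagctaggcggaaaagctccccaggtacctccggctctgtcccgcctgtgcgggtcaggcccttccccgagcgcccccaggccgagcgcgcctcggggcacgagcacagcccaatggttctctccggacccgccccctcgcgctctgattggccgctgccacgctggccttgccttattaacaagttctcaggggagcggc
Msx2: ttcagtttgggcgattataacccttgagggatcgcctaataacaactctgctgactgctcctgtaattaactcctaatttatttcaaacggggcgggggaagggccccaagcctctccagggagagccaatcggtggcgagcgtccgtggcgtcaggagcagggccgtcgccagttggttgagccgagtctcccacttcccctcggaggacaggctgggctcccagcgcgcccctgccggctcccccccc
Irx3 and Lhx9 each held 1 CAGAC and none of the 5 held GGCGCC. A match is a run of letters and not a measured binding site.

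The homeobox genes beyond these 45 gave a few larger ratios. Of 115 other homeobox genes outside the Hox clusters, 57 were tested. By the 1.5-fold rule 1 was brighter and 2 were dimmer, beside 0.490% and 0.523% of all genes tested. By limma 0 were called, against 0% of all genes brighter and 0.00471% dimmer. Hopx, which encodes a homeodomain protein that does not bind DNA, gave 0.59 and 0.82, with signals of 7596 and 8641 in Smad4cKO and 4789 and 5170 in control. Tlx2, a gene of neural crest-derived neurons, gave -0.96 and -0.72, with 924 and 956 against 1774 and 1658. Of the 12 neuronal and glial markers, 11 were dimmer on both arrays and 1 was brighter, beside 19.8% and 19.9% of all genes. Their summed signal was 9876 and 11066 in Smad4cKO and 15143 and 14069 in control. The part of these markers in the Tlx2 value was not tested.

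Genes known to be induced by or to act on BMP-SMAD signalling are set beside the Msx genes here. Of 12 such genes 11 were tested, with a median log2 ratio of 0.04. By the 1.5-fold rule 4 of them were brighter and 1 dimmer, beside 0.490% and 0.523% of all genes, and limma called 0. The transcriptional inhibitor Id1 gave 1.14 and 1.19 and Id3 gave 0.99 and 1.04, on the arrays where Msx1 gave -0.35 and -0.22 and Msx2 gave 0.09 and 0.01. The difference between the Id and the Msx genes was not tested. All of these signs rest on the dye labels, whose direction is not settled.

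**Figure D4:**
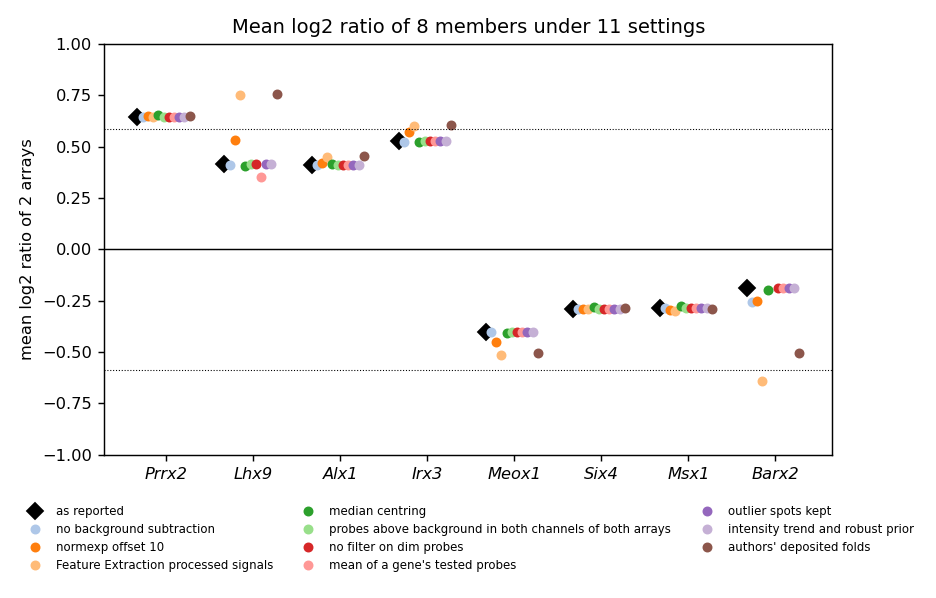
Mean log2 ratio of both arrays (y axis) for the 8 members described in full by rule (x axis), as reported (diamonds) and under 10 alternatives (points; 9 for Barx2, which could not be tested where both channels had to exceed background), with dotted lines at 1.5-fold. The sign is the same at every point drawn; the dim genes Lhx9 (0.35 to 0.76) and Barx2 (-0.64 to -0.19) spread most, and Prrx2 stays at 0.64 to 0.65.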

How the data were processed

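The submitters' processing notes name Agilent Feature Extraction 10.7.3.1 as the scanner software. The deposited files hold, per the file headers, for each spot a mean and a background intensity, a processed intensity (background-subtracted and dye-normalized), an unused log10 ratio of red over green, and flags; probe positions are in build mm9. How the authors made the deposited value table of signed folds is not stated.

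Mean intensities were background-corrected with normexp (offset 50) and loess-normalized within each array, with control spots at weight 0 (limma 3.58.1, statmod 1.5.0, R 4.3.3, version 1.17.8 of data.table). Spots flagged as outliers were left out and spots of a probe averaged. Probes were tested if 1 genotype's channel exceeded background (well-above-background flag) on both arrays, and each gene took its brightest such probe. Log2 ratios were tested against 0 with lmFit and eBayes over 21238 genes (1 residual and 4.89 prior degrees of freedom), after the functions were tested on simulated data. With 2 arrays, the number of arrays limits the precision. Accessions of 26412 probes were matched to RefSeq symbols. Figures used Python 3.11.15 and matplotlib 3.10.9.

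The members and lists were chosen with earlier results of these data known. Full values are given for members past a rule and for the 4 others per direction with the same sign on both arrays and the largest smaller ratio, and every member is named. Of the other homeobox genes, up to 6 past the 1.5-fold rule are named except 1 that is not reported here, and Smad4 and Tbx18 in any case. Values of Nkx2-3, Hhex, Meis1, Meis2, Emx2, Irx2, Dlx1, Dlx4, Id1, Id2, Id3, Smad6 and Zcchc12 were chosen after being seen.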

Additional observations from a re-analysis of the deposited data

How the results depend on the processing

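Over 10 alternatives that keep both arrays (background, normalization, probe filter, probe summary, outlier spots, empirical Bayes prior and the authors' values), 33 of the 35 tested members kept the sign of their mean wherever they were tested, among them the 8 given in full (Barx2 under 9 alternatives only). The filter favoured the signs of Barx2, Dlx5 and Irx6, so their signs here add no support. The mean of Irx2 turned to -0.03 without background subtraction, -0.07 from processed signals and -0.06 with the authors' deposited folds, and that of Irx6 to 0.03 with the latter. The number of members past the 1.5-fold rule stayed at 0 except that 1, Lhx9, was brighter from processed signals and 1, again Lhx9, with the authors' deposited folds. The number called by limma stayed at 0 except with the intensity trend and robust prior, where 3 were brighter (Irx3, Lhx9 and Prrx2). On a single array, without a test, 1 to 2 members were brighter and 0 to 2 dimmer by 1.5-fold, and the median ranged from 0.02 to 0.09. The cause of these changes was not tested. Limma's counts with 1 array left out could not be fitted, since no residual degree of freedom remains. The test is itself paired, since each ratio sets a Smad4cKO RNA against the control RNA of the same array. Signal near background limits Barx2, Dlx5, Irx6, Nkx2-5 and Lhx9, and in the female pair also Irx2 and the Smad4cKO channel of Nkx2-3.

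Over all genes, limma called 0 brighter and 1 dimmer as reported. It called 35 and 31 with an offset of 10, 143 and 160 from processed signals, 72 and 77 with the authors' deposited folds, 298 and 407 with the intensity trend and robust prior, 1 and 3 with probes above background in both channels of both arrays, and 0 or 1 in all with the other 5 alternatives that keep both arrays. The 1.5-fold rule gave 104 brighter and 111 dimmer as reported, 184 and 199 from processed signals, and 177 and 184 with the authors' deposited folds. Median centring in place of loess left 91 and 99, with 1440 genes past 1.5-fold in opposite directions on the arrays, against 266.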
